A study of Saccharomyces cerevisiae with 20 samples.

Results

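The 60 genes described here are ribosome assembly factors of budding yeast, taken from the table of 6679 genes by a list of their ORF identifiers; the rule used no measured value, although the list was drawn up with earlier results of these data known. They were grouped by role into 10 nucleolar NOP proteins and proteins of the box C/D and H/ACA small nucleolar particles, 25 proteins of the SSU processome and of 40S assembly, 15 factors of 60S assembly, and 10 DEAD-box helicases of ribosome assembly. All 60 were found in the table and all passed the filter on low values in both assays.

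The cells were SK1 yeast that carried either DED1 under the regulatory regions of DED1 (DED1 cells) or DBP1 under those same regions (DBP1 cells). DED1 encodes a DEAD-box RNA helicase of translation initiation, and DBP1 its paralog; by the series design, the DED1 reading frame had been replaced by DBP1 to ask how specific the helicase is and how temperature bears on it. Vegetative cells were cultured at 30C or 37C in aerated YEPD to an optical density of 0.6, and all received 100 uM cycloheximide for 1 min before harvest. From each replicate there was an mRNA library, from 50 nt fragments, and a library of ribosome footprints of 28 to 31 nt, with 3 replicates per strain at 30C and 2 per strain at 37C, so 20 libraries in all. The labels do not say whether the replicates were separate cultures, so the p-values measure the spread between these samples, which may be technical.

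Ribosome assembly begins in the nucleolus, where RNA polymerase I makes a long precursor rRNA. Box C/D particles methylate this RNA and H/ACA particles turn uridines into pseudouridines, the SSU processome folds and cleaves the part that becomes the 40S subunit, and a separate set of factors and helicases matures the 60S subunit. In yeast the genes of these factors are known to be transcribed together as a regulon that responds to growth rate and stress.

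The expected helicase was found in each library. DED1 mRNA was at 40.9 to 54.2 RPKM in DED1 cells and at 0.0765 to 3.19 RPKM in DBP1 cells, and DBP1 mRNA at 98.3 to 130 RPKM in DBP1 cells and at 3.64 to 6.50 RPKM in DED1 cells. RPKM scales the reads of a gene by its length and by the depth of its library and is thus a share of the library, so neither the amount of RNA per cell nor a change in all mRNAs together can be read from it, and fewer cells of a type cannot be told apart from less RNA per cell. Depth recovered from the values was 3942097 to 9687035 reads for mRNA and 4816070 to 9393325 for footprints, and the 59 assembly factors whose reads could be recovered had at least 199 in every library; those of the very short NOP10 were not recovered.

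A pair of replicates stood apart for the assembly factors. In DBP1 cells at 30C, replicate 2 was the lowest of its 3 replicates for 60 of the 60 genes in mRNA and for 60 in footprints, against 33.3% and 46.3% of all tested genes. In DED1 cells at 30C, replicate 3 was the highest of its 3 for 58 genes in mRNA and for 60 in footprints, against 30.1% and 31.3% of all tested genes. The sums, the order of the groups and the counts between strains at 30C are given with and without them, and other counts where leaving one out moved them by over 1.5 times. The strain and temperature comparisons below share their groups, so a replicate that stands apart enters several of them.

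The assembly factors covered a wide range of levels. The mean mRNA level over the 10 replicates went from 26.7 RPKM for UTP20 (YBL004W), a very large scaffold protein of the SSU processome, to 1227 RPKM for NOP10 (YHR072W-A), a small core protein of the H/ACA particles. Of the 9 genes with the highest mean mRNA level, 8 belonged to the small nucleolar particle and NOP group, and the other was MRT4, a 60S assembly factor. In DED1 cells at 30C the median mRNA level was 648 RPKM in that group, 233 RPKM among the 60S factors, 87.1 RPKM among the SSU processome and 40S factors, 80.6 RPKM among the helicases and 62.3 RPKM over all tested genes. The spread within a role was wide, from 113 to 1339.6 RPKM in the small nucleolar particle and NOP group.

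The most and least abundant genes of a role show the range of replicates behind these levels. NOP10 mRNA was at 1112, 1358 and 1548 RPKM in replicates 1, 2 and 3 of DED1 cells at 30C, at 1036, 1010.0 and 1359 RPKM in DBP1 cells at 30C, at 1232 and 1184 RPKM in DED1 cells at 37C and at 1304 and 1129 RPKM in DBP1 cells at 37C. KRR1, a factor of 40S assembly, was in the same order at 207, 267 and 312 RPKM, at 210.2, 175 and 242 RPKM, at 240.3 and 234 RPKM and at 246 and 238 RPKM. All 4 groups overlapped for both genes. MRT4, related to a protein of the ribosomal stalk, was at 426, 507 and 636 RPKM in DED1 cells at 30C and at 341 and 417 RPKM at 37C, which did not overlap, and in DBP1 cells at 403, 351 and 479 RPKM and at 416 and 412 RPKM, which did. ERB1, the least abundant 60S factor in DED1 cells at 30C, was at 54.3, 64.5 and 64.4 RPKM there, at 54.7, 40.6 and 50.5 RPKM in DBP1 cells at 30C, at 51.7 and 55.9 RPKM in DED1 cells at 37C and at 66.9 and 60.3 RPKM in DBP1 cells at 37C. In ERB1 the DBP1 replicates at 37C were above all DBP1 replicates at 30C.

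Footprint levels followed mRNA levels across the 60 genes (Spearman's rho 0.901, across genes, which are not independent and share the libraries). Translation efficiency is used here for the ratio of the footprint RPKM to the mRNA RPKM of the same replicate. In DED1 cells at 30C its median was 0.811 for the assembly factors and 0.654 for all tested genes, and it went from 0.401 for UTP9, of the UTP-A subcomplex, to 2.07 for ERB1, a 60S factor of the complex with NOP7 and YTM1. NOP1 (fibrillarin, the methyltransferase of box C/D particles) at 1.70 and RRP5, a large RNA-binding protein needed for both subunits, at 1.91 were also high in that group of samples. Shorter genes had the higher mRNA levels (rho -0.756 with gene length over the 60 genes), whereas efficiency had a rho of -0.010 with length.

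The summed level of the set had a different order of strains at each temperature. The mRNA levels of the 60 genes summed to 12213, 13859 and 15909 RPKM in replicates 1, 2 and 3 of DED1 cells at 30C, and to 11884, 9859 and 12789 RPKM in DBP1 cells at 30C. At 37C the sums were 10316 and 11499.7 RPKM in DED1 cells and 12741 and 12245 RPKM in DBP1 cells. DED1 cells had the higher mean at 30C and DBP1 cells at 37C, with the replicates of the strains overlapping at 30C and separate at 37C. Footprint sums at 30C were 10831, 12154 and 13792 RPKM in DED1 cells and 10899, 8477 and 10753 RPKM in DBP1 cells, again overlapping. At 37C they were 9089.9 and 9347 RPKM in DED1 cells and 11199 and 9917 RPKM in DBP1 cells, with no overlap. Without replicate 2 of the DBP1 cells at 30C, the mean mRNA sum of that group was 12337 RPKM in place of 11511, and without replicate 3 of the DED1 cells at 30C that of the DED1 cells was 13036 RPKM in place of 13994. In footprints the means were 10826 RPKM in place of 10043 and 11493 RPKM in place of 12259. DED1 cells kept the higher mean at 30C in both assays with both replicates left out.

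**Figure D1:**
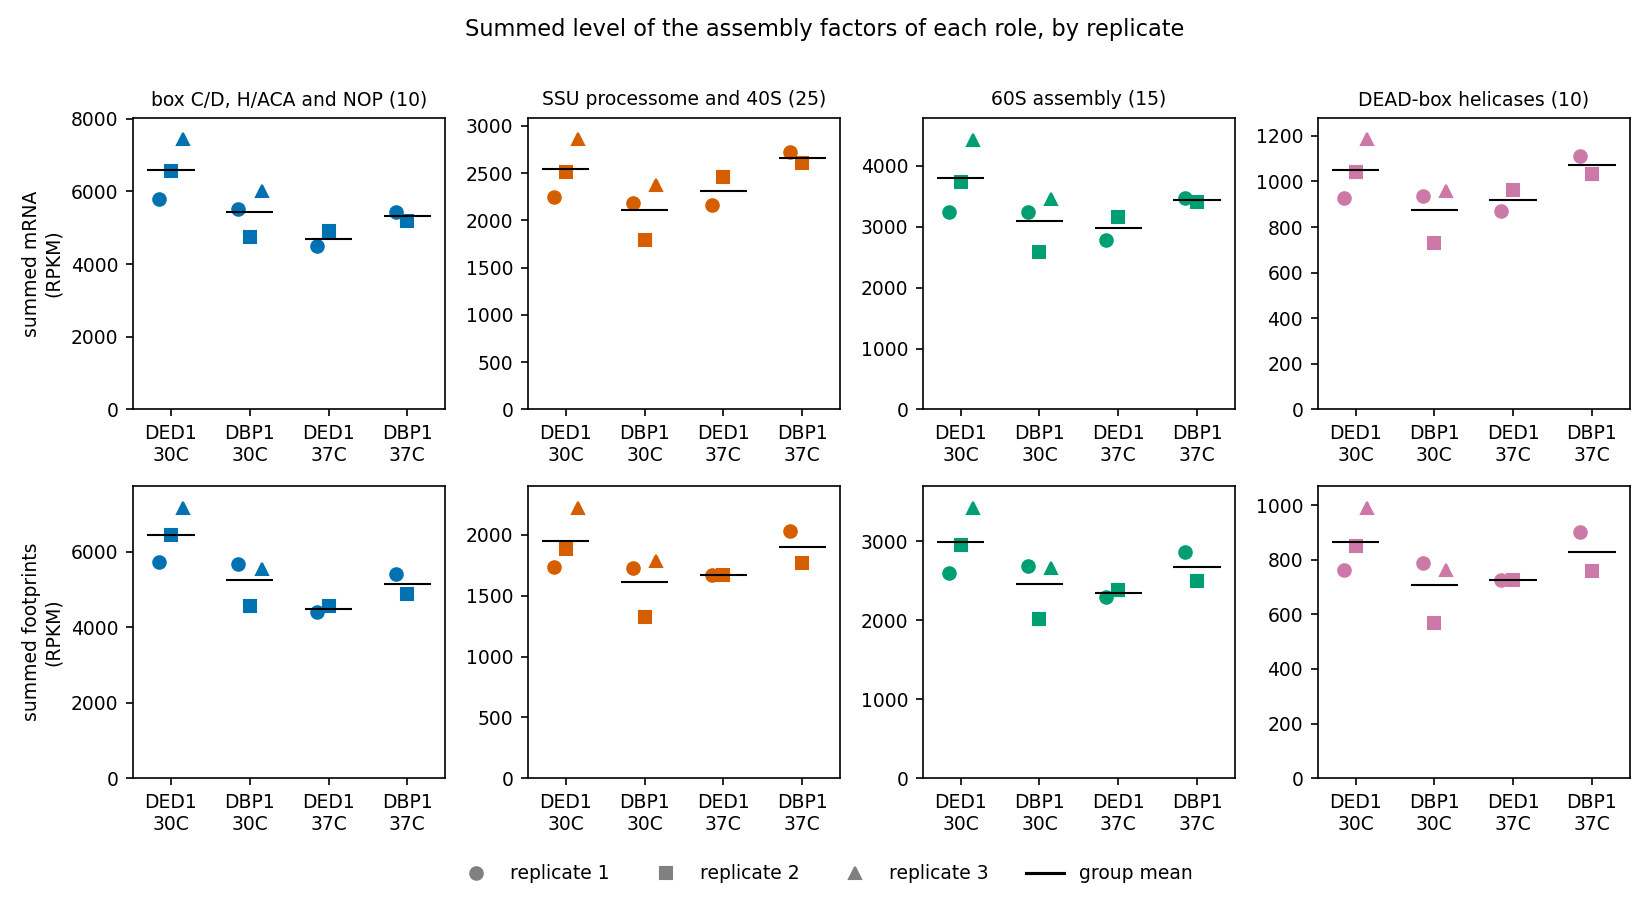
Summed RPKM of the assembly factors of each role in mRNA (top) and footprints (bottom), with 1 point per replicate and a line at the mean of each group. DED1 cells at 30C have the highest footprint mean in each role, and in each role the DED1 replicates at 37C lie below the DBP1 replicates at 37C.

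Gene by gene, the group with the highest mean mRNA was DED1 cells at 30C for 28 of the 60 genes and DBP1 cells at 37C for the other 32. The lowest was DBP1 cells at 30C for 39 genes and DED1 cells at 37C for 21. For all tested genes the pattern was another: DED1 cells at 37C were highest for 43.3% and DED1 cells at 30C lowest for 45.1%. In footprints, DED1 cells at 30C were highest for 38 assembly factors, DBP1 cells at 37C for 21 and DED1 cells at 37C for 1, and the lowest were DED1 cells at 37C for 33 and DBP1 cells at 30C for 27. These counts moved with single replicates. Without replicate 2 of the DBP1 cells at 30C, that group was lowest for 21 genes in mRNA and 17 in footprints, and DED1 cells at 37C for 38 and 43. Without replicate 3 of the DED1 cells at 30C, that group was highest for 19 and 28, and DBP1 cells at 37C for 40 and 31.

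At 30C, the question was whether DBP1 in the place of DED1 changed the level of assembly factors. All 60 genes had a lower mean log2 mRNA level in DBP1 than in DED1 cells, which is a count of signs and not of calls, with a median difference of -0.27 (log2 of RPKM + 1, the scale of all differences below) against 0.04 over all tested genes, of which 40.9% were below 0. Only NOP1 passed the test (limma, Benjamini-Hochberg adjusted p under 0.05), where 1.27% of all tested genes passed in that direction. An unadjusted p under 0.05 was found for 22 of the 60 genes, where 7.54% of all tested genes were lower at that p. The replicates of the strains did not overlap for 16 of the 60 genes, all lower in DBP1 cells, where 10.0% of all tested genes were apart in that direction. Leaving out replicate 2 of the DBP1 cells or replicate 3 of the DED1 cells could not change the count of 16. The former was the lowest of its group for all 60 genes, and the latter the lowest of its group for none. Over all tested genes the share apart was 12.2% without the former, 14.2% without the latter and 18.3% without both. Without replicate 2 of the DBP1 cells the median was -0.16 with 57 genes below 0, and without replicate 3 of the DED1 cells it was -0.18 with 58 below 0. Both replicates moved the difference in the same direction. With both left out, the mRNA mean of several genes, SDA1 and NOP14 among them, was higher in DBP1 cells. The median difference without both was not computed.

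NOP1 (YDL014W) mRNA was at 654, 693 and 765 RPKM in DED1 cells and at 577, 477 and 558 RPKM in DBP1 cells at 30C. Every DBP1 replicate was below every DED1 replicate. The difference was -0.39 ± 0.10 (SE, n = 3 and 3), 1.31-fold lower, with an adjusted p of 0.0302 in limma. Leaving out replicate 2 or 3 of either strain ended this call.

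Footprints at 30C had the same direction in all 60 genes, with a median difference of -0.29 against 0.06 over all tested genes, of which 40.3% were below 0. CBF5 (YLR175W), the pseudouridine synthase of H/ACA particles, was the 1 gene past the test, where 3.09% of all tested genes passed in that direction, and 24 had an unadjusted p under 0.05, where 10.1% of all tested genes were lower at that p. Its footprints were at 513, 539.6 and 583 RPKM in DED1 cells and at 477, 405 and 453 RPKM in DBP1 cells, with no overlap. The difference was -0.29 ± 0.08 (SE), 1.23-fold lower (limma, adjusted p 0.0441), and the number of assembly factors past the test went from 0 to 6 as each replicate was left out in turn: it was 0 without replicate 1, 2 or 3 of the DBP1 cells, without replicate 2 or 3 of the DED1 cells at 30C or without either DED1 replicate at 37C, 2 without either DBP1 replicate at 37C, and 6 without replicate 1 of the DED1 cells at 30C. The groups did not overlap for 18 genes, all lower in DBP1 cells, where 13.2% of all tested genes were apart in that direction. The count stayed at 18 without replicate 2 of the DBP1 cells, replicate 3 of the DED1 cells or both. The share of all tested genes was then 14.9%, 16.8% and 19.5%. Without replicate 2 of the DBP1 cells the median was -0.16 with 57 genes below 0, and without replicate 3 of the DED1 cells -0.20 with 59 below 0. With both left out, the footprint mean of several genes, NOP14 and DBP10 among them, was higher in DBP1 cells, and the median was not computed.

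The 4 roles hardly differed in this comparison. The median mRNA difference was -0.28 in the small nucleolar particle and NOP group, -0.23 in the SSU processome and 40S group, -0.28 among the 60S factors and -0.27 among the helicases. The range over single genes was -0.41 to -0.05 in mRNA and -0.43 to -0.07 in footprints, and SDA1, a factor of 60S assembly and export, had the smallest mRNA difference.

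**Figure D2:**
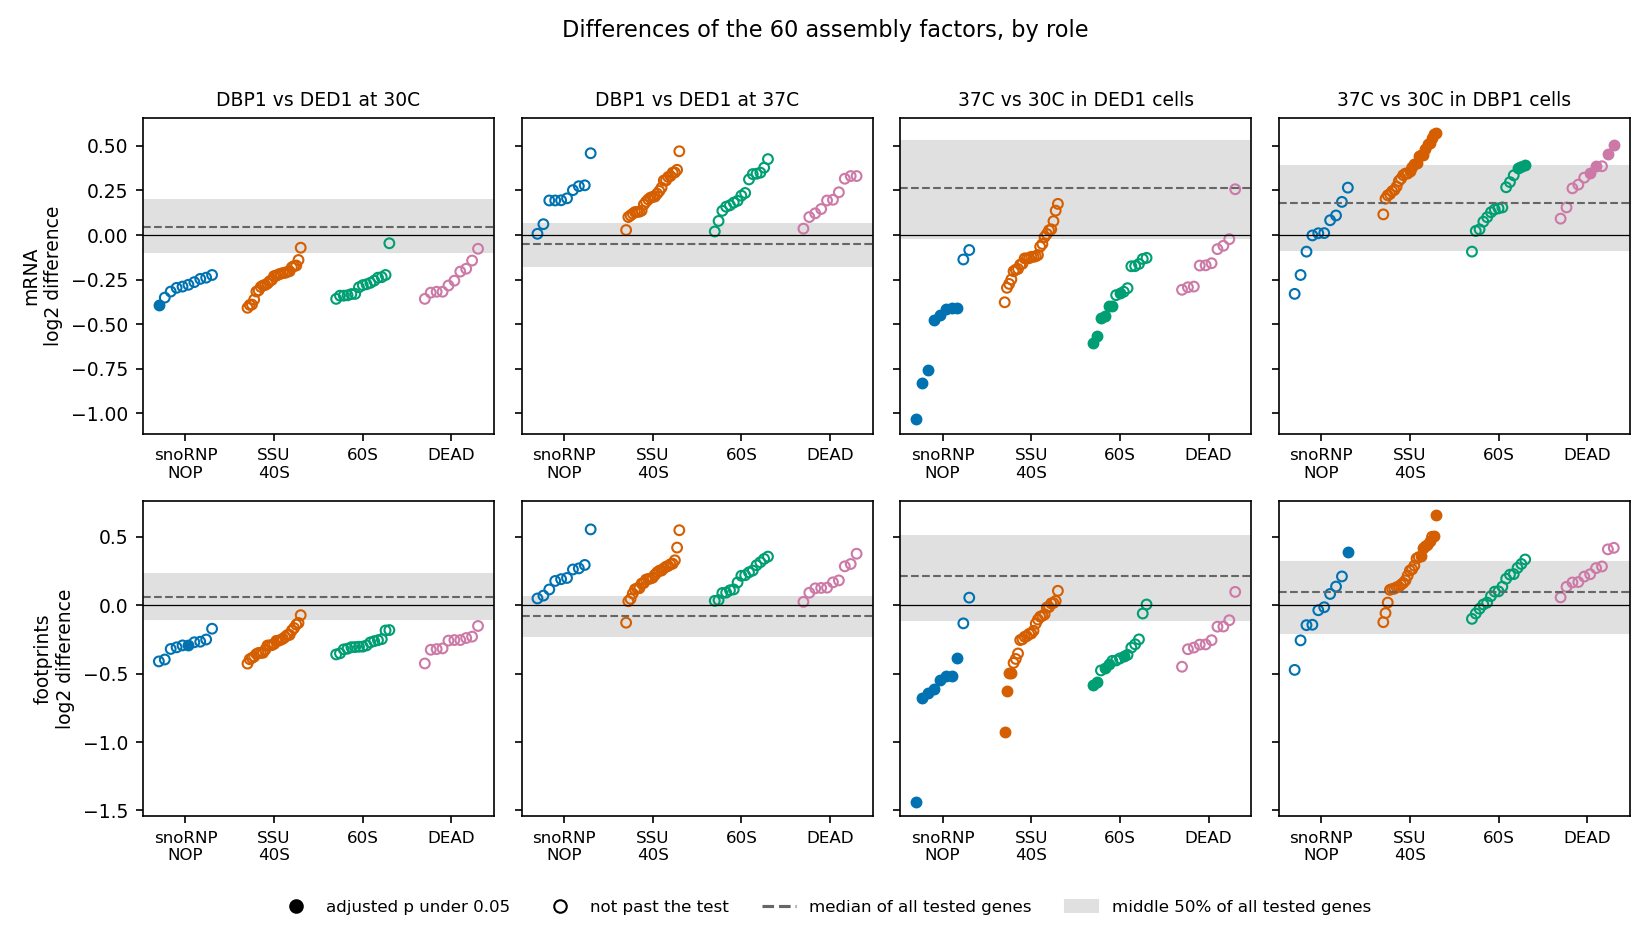
Log2 differences of the 60 assembly factors in mRNA (top) and footprints (bottom), 1 point per gene, sorted within each role, filled where the adjusted p was under 0.05. The dashed line and grey band are the median and the middle 50% of all tested genes, and the points lie below the line for the strains at 30C and for the temperatures in DED1 cells, above it for the strains at 37C apart from UTP7 footprints, and on both sides of it for the temperatures in DBP1 cells.

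At 37C the sign was opposite. All 60 genes had a higher mRNA mean in DBP1 than in DED1 cells, with a median difference of 0.21 against -0.05 over all tested genes, of which 38.4% were above 0. No assembly factor passed the test in limma, where 0.055% of all tested genes passed in either direction, and 9 of the 60 had an unadjusted p under 0.05, where 1.82% of all tested genes were higher at that p. The replicates did not overlap for 43 genes, all higher in DBP1 cells, where 13.5% of all tested genes were apart in that direction. With 2 replicates a side this is a weak criterion, and 52 to 60 genes stayed above 0 as each replicate was left out, the lowest count being without replicate 1 of the DED1 cells.

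In footprints at 37C, 59 genes were higher in DBP1 cells and UTP7 alone was lower, at -0.13, with a median of 0.19 against -0.08 over all tested genes, of which 35.4% were above 0. None passed the test in limma, where 0.963% of all tested genes passed in either direction, and 8 had an unadjusted p under 0.05, where 2.87% of all tested genes were higher at that p. The replicates were apart for 33 genes that were higher in DBP1 cells, where 13.5% of all tested genes were so, and for 1 that was lower, where 33.9% of all tested genes were. This count of directions rested in part on replicate 1 of the DBP1 cells, without which 40 genes were above 0 and the median was 0.09.

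The difference between the strains' temperature effects, that is the strain difference at 37C less that at 30C, was tested as an interaction. It was above 0 for all 60 genes in both assays, with a median of 0.50 in mRNA against -0.10 over all tested genes and of 0.48 in footprints against -0.15. Over all tested genes 36.2% and 33.8% were above 0. Most genes of the other lists of ribosome production described below were above 0 as well. An unadjusted p under 0.05 was found for 37 assembly factors in mRNA and 28 in footprints, where 5.56% and 7.14% of all tested genes were above 0 at that p. NOP1 was the 1 gene past the test in mRNA, at 0.67 ± 0.15 (SE, limma adjusted p 0.0341), where 0.165% of all tested genes passed in that direction. In footprints 4 passed, where 1.91% of all tested genes passed in that direction: RRP9, a protein of the U3 particle, CBF5, NOP58, a core protein of box C/D particles, and UTP8, of the UTP-A subcomplex. Their estimates were 0.65 ± 0.17, 0.48 ± 0.13, 0.52 ± 0.14 and 0.68 ± 0.19, with adjusted p-values of 0.0393, 0.0427, 0.0453 and 0.0455 (limma).

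These interaction calls were fragile. NOP1 lost its mRNA call without replicate 2 or 3 of either strain at 30C, without replicate 1 of the DBP1 cells at 37C or without either DED1 replicate at 37C. The number in footprints was 0 without replicate 2 of the DBP1 cells at 30C, replicate 1 of the DBP1 cells at 37C, replicate 2 or 3 of the DED1 cells at 30C or replicate 2 of the DED1 cells at 37C, 1 without any of the other replicates bar 1, and 9 without replicate 1 of the DED1 cells at 30C. The sign held in each of these cases for all 60 genes in mRNA and for at least 59 in footprints.

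The comparison of temperatures needs its reference stated first. Over all tested genes the median mRNA difference between 37C and 30C was 0.26 in DED1 cells and 0.18 in DBP1 cells, and the median footprint difference was 0.21 and 0.10; after scaling libraries by the median of ratios these medians lay between -0.01 and 0.02. Differences of the assembly factors are therefore given as RPKM show them, and beside them relative to these medians. The labels do not say whether the libraries of both temperatures were made together. If they were not, an effect of temperature cannot be told apart from a difference between those runs.

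In DED1 cells, assembly factors were lower at 37C. In mRNA 15 of the 60 genes fell and none rose, where 10.3% of all tested genes fell. There were 53 genes below 0, where 26.4% of all tested genes were, and the median difference was -0.17, or -0.44 relative to all tested genes. The temperatures did not overlap for 22 genes that were lower at 37C, where 14.6% of all tested genes were so apart. The calls were in part of the roles: 8 of 10 genes of the small nucleolar particle and NOP group fell and 7 of 15 60S factors fell, but none of the 25 SSU processome and 40S factors and none of the 10 helicases did. With median-of-ratios scaling all 60 genes were below 0 and 36 fell, where 21.7% of all tested genes fell. These were 8, 12, 11 and 5 genes of the small nucleolar particle, 60S, SSU processome and helicase groups, so the roles in which no gene fell on the RPKM scale did have falling members on the other. Footprints gave 17 genes that fell, with 8 in the small nucleolar particle and NOP group, 5 among the 60S factors, 4 in the SSU processome and 40S group and none among the helicases, where 13.6% of all tested genes fell. There were 53 genes below 0, where 33.1% of all tested genes were, and the median was -0.29, or -0.50 relative to all tested genes. For 38 genes the temperatures did not overlap and 37C was lower, where 19.8% of all tested genes were so apart, and with median-of-ratios scaling 41 fell, where 24.0% of all tested genes fell.

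NSR1 (YGR159C), the yeast nucleolin, had the largest difference of the 60 genes in DED1 cells. Its mRNA was at 453, 545 and 645 RPKM at 30C and at 238 and 293 RPKM at 37C. Its footprints were at 672, 872 and 1048 RPKM at 30C and at 289.6 and 338 RPKM at 37C. The temperatures did not overlap in either assay. The mRNA difference was -1.03 ± 0.20 (SE, n = 3 and 2), 2.05-fold lower (limma, adjusted p 0.002), and the footprint difference -1.44 ± 0.21, 2.71-fold lower (limma, adjusted p 0.000457).

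In DBP1 cells NSR1 was at 479.7, 327 and 487 RPKM in mRNA at 30C and at 393 and 336 RPKM at 37C, so the temperatures overlapped. Its mRNA difference there was -0.22 ± 0.20 and its footprint difference -0.47 ± 0.21, with adjusted p-values of 0.367 and 0.0921 (limma). The strain by temperature estimate of NSR1 was the largest of the 60 in both assays, 0.81 in mRNA and 0.97 in footprints, and did not pass the test, with adjusted p-values of 0.113 and 0.0579 (limma).

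NOP1 mRNA was at 401 and 429 RPKM in DED1 cells at 37C, below each of the 3 replicates at 30C given above. It fell by 0.76 ± 0.11, 1.69-fold (limma, adjusted p 0.000488), and its footprints, which went from 1112, 1182 and 1301 RPKM to 720.0 and 818 RPKM, fell by 0.64 ± 0.11 (limma, adjusted p 0.00137). In DBP1 cells at 37C its mRNA was at 525 and 480.0 RPKM, within the range of that strain at 30C. The rest of the group in DED1 cells included GAR1, a core protein of H/ACA particles, which fell by 0.83 in mRNA and 0.68 in footprints, CBF5, which fell by 0.48 and 0.52, and NOP56, a core protein of box C/D particles, which fell by 0.41 and 0.55. NOP10 did not pass in either assay, at -0.14 in mRNA and 0.05 in footprints, although it is a partner of GAR1 and CBF5 in the same particle. NOP4, a nucleolar RNA-binding protein of 60S assembly and the least abundant of the group, was at 106, 107 and 126 RPKM at 30C and 76.4 and 93.8 RPKM at 37C in DED1 cells, and fell by 0.41 (limma, adjusted p 0.0322).

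Among the 60S factors, NOP7 (YGR103W) mRNA in DED1 cells was at 295, 347 and 421 RPKM at 30C and at 205 and 257 RPKM at 37C, with no overlap. It fell by 0.61 ± 0.18, 1.52-fold (limma, adjusted p 0.0156), and its footprints by 0.56 ± 0.17 (adjusted p 0.0191, limma). EBP2 (YKL172W), a nucleolar factor of 60S assembly, was at 198, 239 and 261 RPKM at 30C and at 155 and 181 RPKM at 37C, again with no overlap, and fell by 0.46 in mRNA and 0.58 in footprints. SDA1 fell in mRNA by 0.57 and RLP7, a protein related to a ribosomal protein, by 0.40 (limma, adjusted p 0.0216 and 0.0326). RRB1, the chaperone of a 60S ribosomal protein, passed in both assays, at -0.40 in mRNA and -0.46 in footprints, as did MRT4, at -0.45 and -0.43. In DBP1 cells NOP7 was at 295, 225 and 320.0 RPKM at 30C and at 299 and 285 RPKM at 37C, which overlapped.

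The 60S calls depended on single replicates more than those of the small nucleolar particle group. Leaving out each replicate in turn gave 4 to 8 falling genes in mRNA in the latter group, with 4 without replicate 1 of the DED1 cells at 37C and 5 without replicate 3 of those at 30C. Among the 60S factors it gave 0 to 8, with none without replicate 1 of the DED1 cells at 37C, 1 without replicate 3 of those at 30C, 2 without replicate 2 of the DED1 cells at either temperature and 4 without replicate 1 of the DBP1 cells at 30C. Over all 60 genes, those same 4 DED1 replicates left 4, 6, 9 and 9 falling genes. In footprints the whole count was 9 without replicate 1 of the DED1 cells at 37C, 11 without replicate 3 of those at 30C and 26 without replicate 2 of the DBP1 cells at 30C.

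Within the SSU processome group in DED1 cells, UTP20, RRP9, RRP5 and UTP14, an activator of the helicase that unwinds U3 from the precursor, fell in footprints, and none of them fell in mRNA. The footprint differences were -0.93 ± 0.21, -0.50 ± 0.12, -0.63 ± 0.18 and -0.50 ± 0.15, with adjusted p-values of 0.00481, 0.007, 0.0161 and 0.021 (limma). Their mRNA differences were 0.03, -0.27, -0.19 and -0.11. A call in footprints beside no call in mRNA is not a test of a difference between the assays. In the tests of translation efficiency given below, UTP20 and RRP5 passed only with a replicate block, and RRP9 and UTP14 did not pass.

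In DBP1 cells the temperature difference had the other sign for most assembly factors on the RPKM scale. In mRNA 18 of the 60 genes rose and none fell, about the same share as the 30.0% of all tested genes that rose. There were 55 genes above 0, where 68.8% of all tested genes were, and the median was 0.28, or 0.09 relative to all tested genes. The temperatures did not overlap for 33 genes that were higher at 37C, where 46.2% of all tested genes were so apart. With median-of-ratios scaling 40 genes were above 0, 2 rose and 1 fell, where 13.1% of all tested genes rose. The genes that rose were 12 of 25 in the SSU processome and 40S group, 4 of 10 helicases, 2 of 15 60S factors and none of the 10 in the small nucleolar particle and NOP group. In footprints 7 of the 60 genes rose and none fell, a smaller share than the 21.2% of all tested genes that rose. Of these 7 genes, 6 were in the SSU processome group. There were 49 genes above 0, where 59.6% of all tested genes were, with a median of 0.17 against 0.10, and 19 genes were apart and higher at 37C, where 37.7% of all tested genes were. With median-of-ratios scaling 1 rose in footprints, where 15.2% of all tested genes rose.

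UTP22 (YGR090W), a protein of the UTP-C subcomplex, had the smallest adjusted p in mRNA in DBP1 cells. It was at 42.5, 40.7 and 41.9 RPKM at 30C and at 71.4 and 54.8 RPKM at 37C, with no overlap, and rose by 0.57 ± 0.11, 1.49-fold (limma, adjusted p 0.00296). In DED1 cells it was at 48.3, 49.3 and 49.5 RPKM at 30C and at 58.7 and 52.4 RPKM at 37C, also without overlap, but the difference of 0.17 ± 0.11 did not pass (limma, adjusted p 0.202). UTP13, of the UTP-B subcomplex, UTP10 and UTP15, both of UTP-A, rose in DBP1 cells by 0.54, 0.52 and 0.48 (limma, adjusted p 0.0065, 0.00787 and 0.0107). UTP18 (YJL069C), of UTP-B, had the smallest adjusted p in footprints: it went from 44.4, 34.7 and 46.9 RPKM to 63.7 and 68.98 RPKM, a rise of 0.66 ± 0.15 (limma, adjusted p 0.00663). With median-of-ratios scaling, UTP22 and UTP13 alone kept their call in mRNA, and UTP18 alone in footprints.

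Among the helicases, DBP6 (YNR038W), which acts early in 60S assembly, was at 27.0, 20.7 and 24.6 RPKM in mRNA at 30C and at 33.3 and 33.2 RPKM at 37C in DBP1 cells. It rose by 0.46 ± 0.11 (limma, adjusted p 0.0101), with no overlap between the temperatures. In DED1 cells it was at 26.0, 24.3 and 25.8 RPKM and at 30.0 and 31.1 RPKM, the only helicase above 0 there in mRNA on the RPKM scale, with a difference of 0.26 ± 0.11 that did not pass (limma, adjusted p 0.0784). DBP7 (YKR024C), another helicase of 60S assembly, was at 43.0, 32.5 and 40.9 RPKM at 30C and at 56.4 and 53.7 RPKM at 37C in DBP1 cells, and rose by 0.50 ± 0.15 (limma, adjusted p 0.0205). In DED1 cells its replicates at 37C, 42.1 and 51.2 RPKM, lay around those at 30C, 42.8, 47.2 and 56.2 RPKM. DBP10 and MAK5 also rose in DBP1 cells, by 0.35 and 0.39. With them 4 of the 10 helicases rose there in mRNA, where 30.0% of all tested genes rose and the median difference was 0.18. None of these 4 calls held with median-of-ratios scaling. DBP3, the most abundant helicase of the group in mRNA, was not past the test in any comparison and was at 169 and 179 RPKM in DED1 cells at 37C and at 232 and 207 RPKM in DBP1 cells at 37C, which did not overlap.

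**Figure D3:**
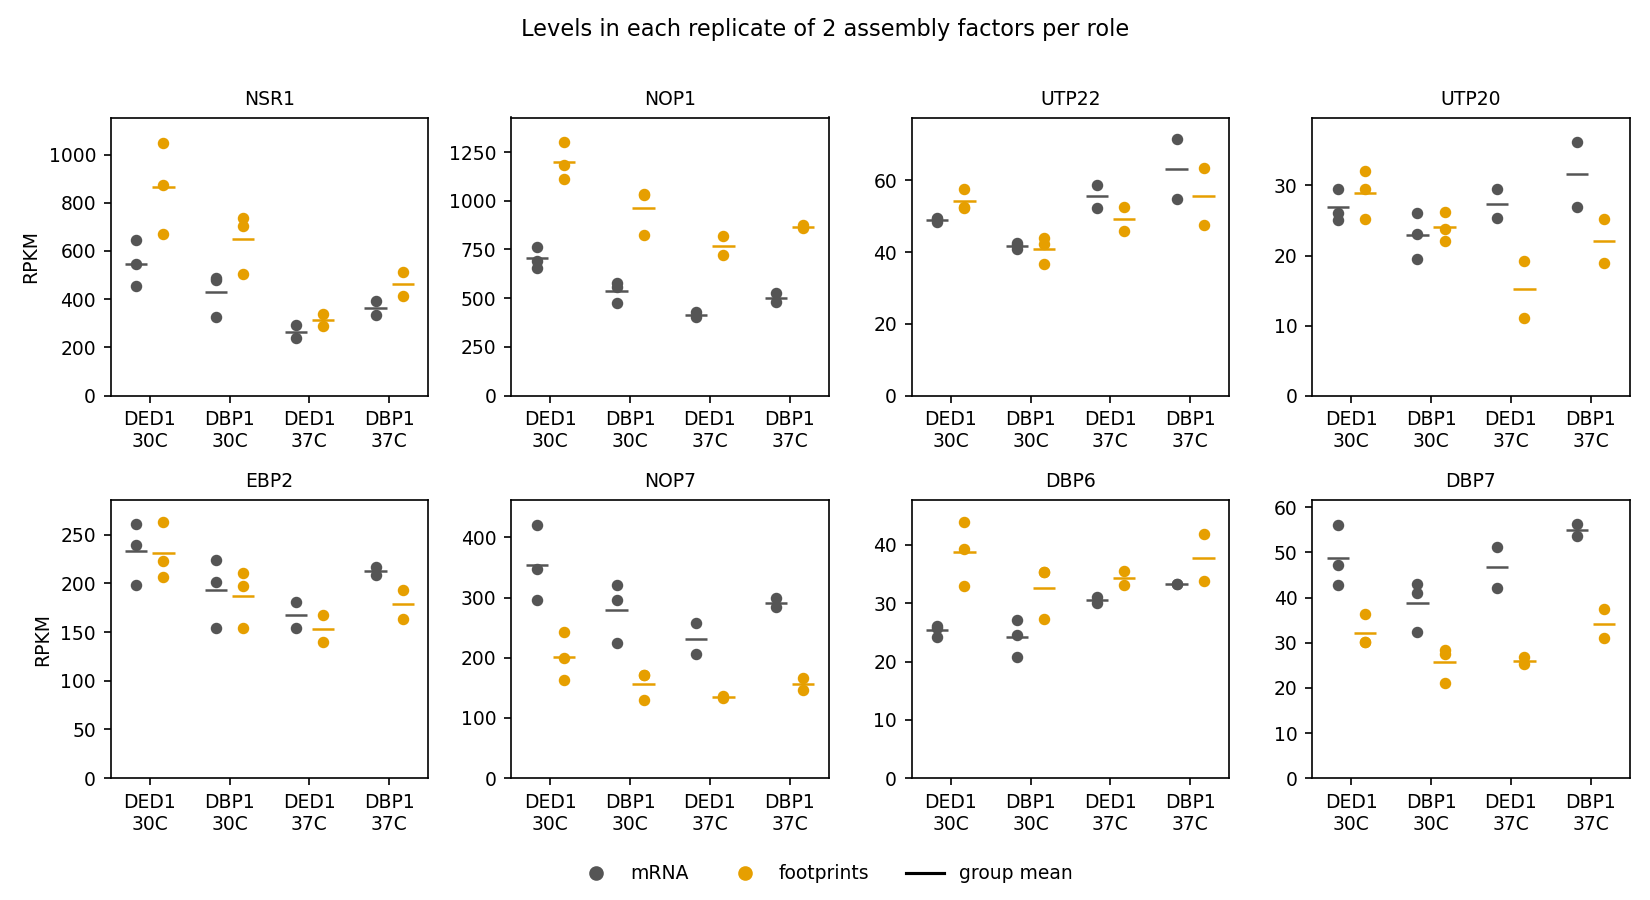
RPKM of 2 assembly factors per role in every replicate, mRNA in grey and footprints in orange, with a line at each group mean. NSR1 and NOP1 are lowest in DED1 cells at 37C in both assays, whereas UTP22 mRNA is highest in DBP1 cells at 37C.

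Single replicates also moved these counts. In mRNA 8 genes passed without replicate 2 of the DBP1 cells at 30C, 7 higher and 1 lower, and 6 without either replicate of the DBP1 cells at 37C. In the SSU processome and 40S group the number that rose was 5 to 13. Without replicate 2 of the DBP1 cells at 30C the median mRNA difference was 0.17, close to the 0.18 of all tested genes. In footprints 2 genes passed without that replicate, 1 without replicate 1 of the DBP1 cells at 37C and 4 without replicate 2 of the DED1 cells at 30C.

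The roles kept the same order in both strains. The median mRNA difference between 37C and 30C was lowest in the small nucleolar particle and NOP group, at -0.43 in DED1 and 0.01 in DBP1 cells, followed by the 60S factors at -0.33 and 0.15, the helicases at -0.16 and 0.34 and the SSU processome and 40S factors at -0.12 and 0.36. The interaction medians of the roles, in contrast, lay close together, at 0.49 for the small nucleolar particle and NOP group, 0.49 for the SSU processome group, 0.52 for the 60S factors and 0.49 for the helicases. No test of the difference between roles was made.

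**Figure D4:**
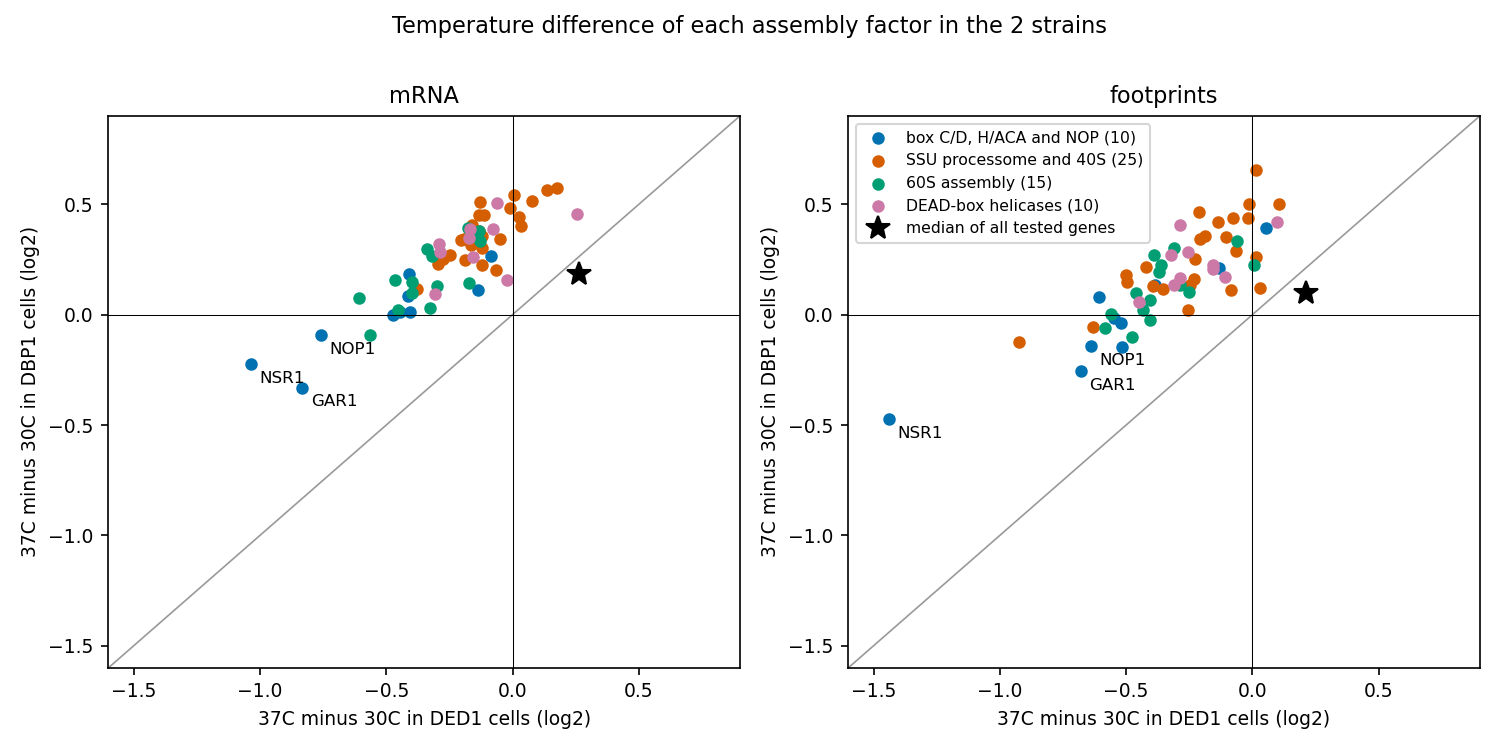
Log2 difference between 37C and 30C of each assembly factor in DED1 cells (horizontal) and in DBP1 cells (vertical), for mRNA and footprints, coloured by role, with the median of all tested genes as a star. All 60 points lie above the diagonal in both panels, the median of all tested genes lies below it, and NSR1 is at the lower left.

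Translation efficiency of the assembly factors differed less than their levels. In a model that did not pair each footprint library with the mRNA library of its number, none of the 60 genes passed the test. This held for both strain comparisons, both temperature comparisons and the interaction, where 0.0402%, 0.0201%, 0.985%, 1.02% and 0.0% of all tested genes passed in either direction (limma). With these pairs as a block, 3 genes were lower at 37C in DED1 cells and 2 in DBP1 cells, as given below. Of all tested genes 3.88% and 4.64% were lower with that block. Without the block, only UTP20 and DBP6 of the 60 had an unadjusted p under 0.05 in any of the 5 comparisons. Both were lower at 37C in DED1 cells, where 7.84% of all tested genes were lower at that p. The median differences between the strains were -0.02 at 30C and -0.02 at 37C, so the strain differences in footprints were close in size to those in mRNA. Between temperatures the medians were -0.06 in DED1 and -0.08 in DBP1 cells, against -0.01 and -0.06 over all tested genes.

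UTP20 had the largest efficiency difference. Its efficiency was 1.00, 1.13 and 1.09 in DED1 cells at 30C and 0.652 and 0.440 at 37C, and 1.01, 1.13 and 1.03 in DBP1 cells at 30C and 0.699 and 0.704 at 37C. Every replicate at 37C was below every replicate at 30C in both strains. The difference was -0.95 ± 0.27 in DED1 cells and -0.57 ± 0.27 in DBP1 cells, with adjusted p-values of 0.127 and 0.436 in limma, and the difference between the strains of 0.39 ± 0.39 did not pass (limma, adjusted p 1). With the replicate as a block, which the pairing of each footprint library with the mRNA library of its number allows, UTP20 passed in both strains, with adjusted p-values of 0.00638 and 0.0495 (limma).

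With that block 3 assembly factors had a lower efficiency at 37C in DED1 cells and 2 in DBP1 cells, where 3.88% and 4.64% of all tested genes had. The others were RRP5, at -0.44 in DED1 and -0.40 in DBP1 cells (limma, adjusted p 0.0274 and 0.0381), and NSR1, at -0.40 in DED1 cells (limma, adjusted p 0.00826). RRP5 was at 1.82, 1.89 and 2.04 in DED1 cells at 30C and at 1.58 and 1.26 at 37C. The NSR1 values were 1.48, 1.60 and 1.62 at 30C and 1.22 and 1.15 at 37C. For both genes the temperatures did not overlap.

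UTP20 is the longest of the 60 genes, at 7482 nt in the S288C annotation, and RRP5, at 5190 nt, is among the 3 longest. Across the 60 genes the efficiency difference at 37C had a Spearman's rho of -0.535 with gene length in DED1 cells and of -0.472 in DBP1 cells, and across the 4924 tested genes with a length the rho was -0.369 and -0.237. These are descriptions across genes, which share the libraries. UTP10, a UTP-A protein of 5310 nt, did not follow: its difference was -0.09 ± 0.21 in DED1 and -0.01 ± 0.21 in DBP1 cells.

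**Figure D5:**
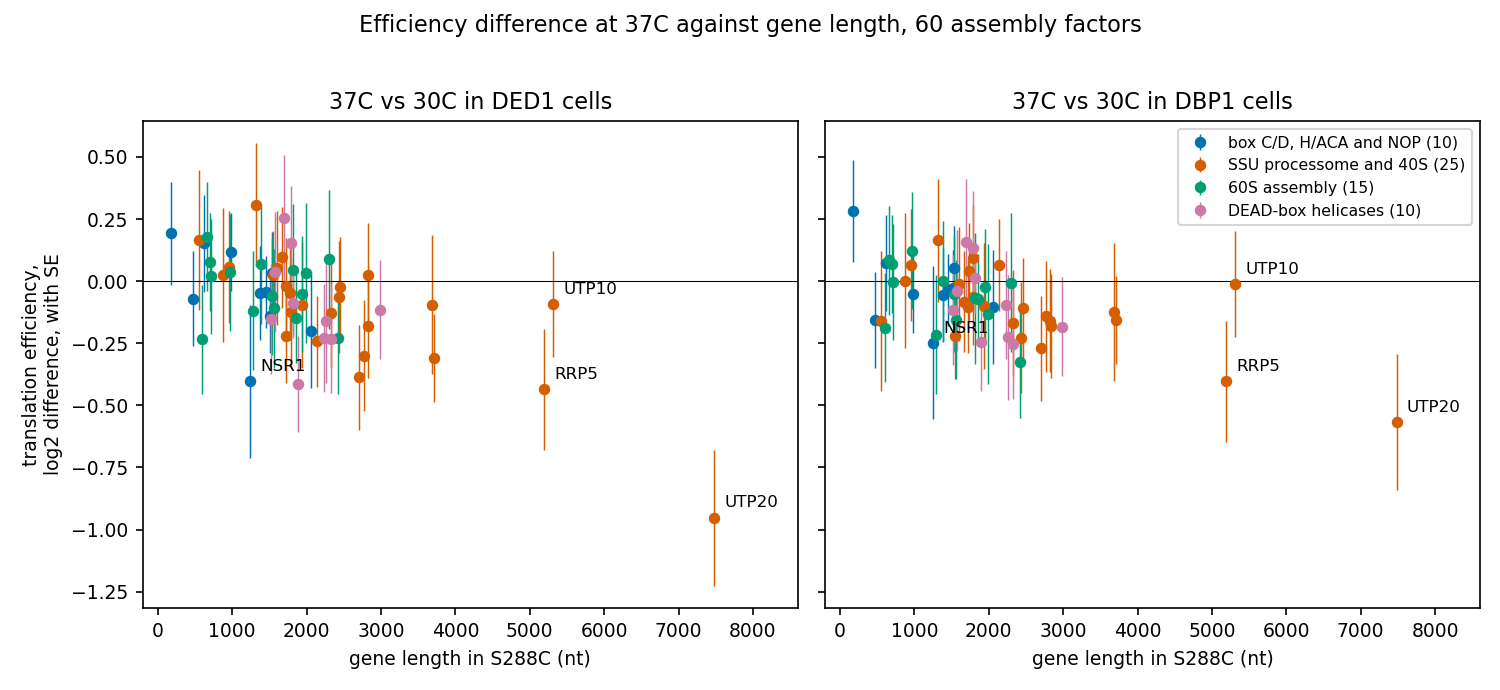
Log2 difference in translation efficiency between 37C and 30C, with its standard error, against gene length in the S288C annotation (nt) for the 60 assembly factors, coloured by role. UTP20 has the lowest value in both strains, RRP5 lies low and UTP10, of like length to RRP5, lies near 0.

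Other genes of ribosome production were compared by the same counts. At 30C the median mRNA difference between DBP1 and DED1 cells was -0.26 for 48 other 40S assembly genes, -0.28 for 50 other 60S assembly genes, -0.21 for 14 genes of RNA polymerase I and its factors, -0.19 for 14 genes of the RNA exosome and -0.18 for 137 ribosomal protein genes. The assembly factors were thus close to the other assembly genes there. At 37C the medians were 0.16, 0.15, 0.12, 0.00 and 0.09, against 0.21 for the 60 assembly factors. The mRNA interaction was above 0 for 47, 50, 13, 11 and 133 genes of these lists, where 36.2% of all tested genes were. Its medians were 0.41, 0.40, 0.31, 0.27 and 0.27, against 0.50 for the 60 assembly factors.

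Between temperatures the calls of the lists are set beside the shares of all tested genes, with no test between lists. In DED1 cells 43.1% of all tested genes rose in mRNA and 10.3% fell. There 12 of the 50 other 60S genes fell and none rose, among them DBP2, a DEAD-box helicase, at -1.13 (limma, adjusted p 0.00328), and TIF6, the factor that keeps the subunits apart, at -0.43 (adjusted p 0.0118, limma). Of the 48 other 40S genes 3 fell and 1 rose, of the RNA polymerase I genes 1 fell and 4 rose, and of the exosome genes 1 fell and 1 rose. Of the 137 ribosomal protein genes 119 fell and 1 rose, with a median of -0.41, led by RPS22B at -1.94 and RPL8A at -0.98 (limma, adjusted p 3.89e-05 and 8.93e-05). In DBP1 cells 30.0% of all tested genes rose and 13.1% fell. Of the lists, 14 of 48 other 40S genes, 6 of 50 other 60S genes, 8 of 14 RNA polymerase I genes and 3 of 14 exosome genes rose and none of these fell, whereas 31 ribosomal protein genes fell and 3 rose, with a median of -0.17.

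In footprints 38.9% of all tested genes rose and 13.6% fell in DED1 cells. There 14 other 60S genes fell and 1 rose, 3 other 40S genes fell and 2 rose, and 124 of 135 tested ribosomal protein genes fell and 1 rose. In DBP1 cells, where 21.2% of all tested genes rose and 17.6% fell, 12 of 48 other 40S genes and 3 of 50 other 60S genes rose and none fell, and 65 ribosomal protein genes fell and 4 rose. For the strain difference at 30C, 39 of the 135 ribosomal protein genes, 2 other 60S genes and 1 exosome gene were past the test, all lower in DBP1 cells, where 3.09% of all tested genes were. The interaction was above 0 with a call for 43 ribosomal protein genes, 2 other 40S genes, 1 other 60S gene and 1 RNA polymerase I gene, where 1.91% of all tested genes were, and below 0 with a call for none of these lists, where 10.0% of all tested genes were. Ribosomal protein genes include many near-identical pairs, whose counts may have been split between the copies.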

How the data were processed

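The authors deposited 1 table of RPKM values for 6679 genes in 20 libraries. Bowtie2, CASAVA and bcl2fastq 2.17 were used, per the submitters' processing notes. Build, counting tool, use of strand and treatment of shared reads: not given in the sources used here. Group and replicate came from the sample titles. In the headers, 2 column names miswrite a strain number and 1 mRNA column is called a footprint column, and the titles were followed. Gene names and lengths came from the RefSeq annotation of S288C (R64), another strain than SK1, which named 5994 genes.

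RPKM of whole reads move in steps, and with gene lengths shortened by 60 nt these steps gave the depths, with 52 of 59 assembly factors at whole reads within 0.02 in every library (NOP10 was too short). Over these 59 the median was 1410 reads per mRNA library and 1180 per footprint library, so counting error is small beside the replicate spread.

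The test was limma (version 3.58.1, R 4.3.3) on log2(RPKM + 1), with group means over the 10 libraries of an assay, eBayes with an intensity trend and two-sided p-values. Benjamini-Hochberg adjustment covered every gene whose mean reached 5 RPKM (5454 in mRNA, 4986 in footprints). Changed means an adjusted p under 0.05. The fold of a gene is that of RPKM + 1 and understates the change of low genes. Translation efficiency was tested in 1 model over all 20 libraries, for 4977 genes. That model did not pair the mRNA and footprint libraries of a replicate, and only its alternative with a replicate block did. Deviations of an mRNA library and the footprint library of the same number from their group means had correlations of 0.24 to 0.655 over genes in all 10 pairs, so these pairs were taken to hold. At 37C 2 replicates give both pairs of a strain the same value, so the 10 are not separate checks. Correlations between libraries of unlike number were not computed for these pairs. The procedure was checked on simulated data with known changes, with noise drawn separately for each gene and library. Shifts of a replicate shared by many genes, as described above, were not simulated, so this check does not cover them.

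Members, lists, roles and tests were chosen with earlier results of these data known. Statistics are printed for up to 4 changed genes per role, assay and comparison by smallest adjusted p, and replicate values for the 2 genes per role with the smallest adjusted p and for the most and least abundant; efficiencies of RRP5 and NSR1 in single replicates were added after their results were seen. Alternatives were other pseudocounts, filters and scaling, a replicate block, and each replicate left out. Promoter sequences were not used here.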

Additional observations from a re-analysis of the deposited data

Results flagged for a closer look

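The strain difference at 37C less that at 30C passed the test of the interaction (limma, adjusted p under 0.05) for 1 assembly factor in mRNA and 4 in footprints. Of all tested genes 0.165% and 1.91% passed in that direction. In mRNA it was NOP1, with a log2 value of 0.665. In footprints they were UTP8 at 0.676, CBF5 at 0.483, NOP58 at 0.52 and RRP9 at 0.646. In each case the gene was lower in DBP1 than in DED1 cells at 30C and higher at 37C, but none of them passed the test of the strains at 37C. Leaving out single replicates ended each of these calls, as described above.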

How the results depend on the processing

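With libraries scaled by the median of ratios, 36 assembly factors changed in mRNA and 41 in footprints for 37C against 30C in DED1 cells, where 21.7% and 24.0% of all tested genes fell. In DBP1 cells 3 and 1 changed. For footprints, 6 changed in the strain difference at 30C and 13 in the interaction. The shares of all tested genes for the 6 and the 13 are not given here, so neither count can be read as an excess. Without the filter on low values 2 passed the footprint interaction; the cause of these moves was not tested. Of 64 calls on single genes named or counted, 22 were lost with that scaling, 7 without the filter, 7 with the replicate block, 1 with a pseudocount of 0.1, and none with a pseudocount of 5 or a filter at 20 RPKM. Leaving out 1 replicate lost from 1 (replicate 1 of the DED1 cells at 30C) to 27 (replicate 1 of the DED1 cells at 37C).

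The replicate numbers were not taken to pair the strains: at 30C the deviations of same-numbered libraries had correlations of -0.06, -0.024 and 0.286 in mRNA and of -0.161, 0.074 and 0.359 in footprints, and not every library correlated best with its own number. At 37C they were 0.361 and 0.479, where 2 replicates give both pairs the same value. For mRNA and for footprints the replicate block was the replicate number over all groups, run as an alternative although this pairing was not taken to hold. With it, 2 genes in mRNA (2.73% of all tested genes) and 8 in footprints (5.21%) were lower in DBP1 cells at 30C. Between temperatures 35 (31.4%) and 17 (21.4%) rose in DBP1 cells and 10 (10.4%) and 15 (13.0%) fell in DED1 cells. In the interaction 5 (1.38%) and 13 (3.59%) were above 0. In efficiency, where the block was the pair of an mRNA library and its footprint library, 3 and 2 were lower at 37C in DED1 and DBP1 cells.

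Leaving out each replicate in turn gave 0 to 4 changed genes in mRNA and 0 to 6 in footprints between the strains at 30C, and 0 to 0 in both at 37C. Between temperatures it gave 4 to 18 in mRNA and 9 to 26 in footprints in DED1 cells, and 6 to 20 and 1 to 10 in DBP1 cells. For the interaction it gave 0 to 2 and 0 to 9, and for efficiency none in any comparison. A group with 1 replicate left is assumed to vary like the others. No call on a single gene changed its sign under any alternative. Depth limits little, but 2 replicates per strain at 37C limit the tests there. The promoter motif counts were not run.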
